A study of Mus musculus with 12 samples.

Results

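Genes that mark cochlear tissues outside the auditory nerve were followed through the ouabain-treated and control nerve preparations, to describe which of these tissues the preparations hold and whether their transcripts change after injury. The set has 34 genes, chosen by name for the hair cells, the supporting cells and tectorial membrane, and the lateral wall, out of 18193 genes with a probe set of their own on the array. Each gene was read from 1 probe set, that with the highest mean over the 12 arrays. By role, 13 are hair cell genes, 6 are genes of supporting cells or the tectorial membrane, 5 mark lateral wall fibrocytes and mesenchyme, 7 mark lateral wall epithelium and ion transport, and 3 are pigment cell genes.

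Ouabain, which blocks the pump that exchanges sodium for potassium and kills most spiral ganglion neurons, was applied at 3 mM to the round window of the right ear of adult CBA/CaJ mice of both sexes, aged 8 to 12 weeks, over about 60 min. The 4 groups were ouabain-treated ears 3 days after treatment, contralateral left ears at 3 days, ouabain-treated ears at 7 days and contralateral left ears at 7 days, with 3 Affymetrix arrays each. The left ears had no operation, so surgery and ouabain cannot be told apart, and each array carried RNA pooled from a pair of preparations. The dissection kept the modiolus, the core of the cochlea, after the bony shell, the lateral wall and most of the sensory epithelium had been taken away, and treated mice whose hearing threshold had shifted too little were left out of the study. All values below are log2 expression values, so that a difference of 1 is a doubling, and a level of 1 probe set cannot be set against that of another.

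The cochlear duct is lined by several specialised tissues. Hair cells turn sound into transmitter release through channels pulled open by tip links between their stereocilia, supporting cells hold them in place and secrete the proteins of the tectorial membrane above them, and the lateral wall keeps the endolymph rich in potassium. In the lateral wall, fibrocytes of the spiral ligament pass potassium on to the stria vascularis, whose marginal cells secrete it and whose intermediate cells are melanocytes that carry the enzymes of melanin synthesis. Several of the fibrocyte genes are also known from the spiral limbus, which lies on the modiolar side of the duct.

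Transcripts of most of these tissues were measured in the preparations, although lateral wall and most sensory epithelium had been removed. Taking a log2 value of 6, close to the array medians of 6.01 to 6.09, as a mark of brightness, 21 of the 34 genes stood above it in all 12 arrays, 6 in some arrays and 7 in none. In any array 50.1% to 51.2% of all probe sets stood above it, a share not limited to the brightest probe set of each gene. How many of all genes stood above 6 in every array was not counted. All 5 fibrocyte and mesenchyme genes stood above it throughout, and so did Slc12a2, Slc26a4, Esrrb, Cldn11 and Met of the lateral wall epithelium. Coch, which encodes cochlin, a secreted matrix protein of fibrocytes, lay between 14.01 and 14.21 in the 12 arrays, and Otos, which encodes the fibrocyte protein otospiralin, lay between 13.63 and 14.08. Among the hair cell genes the picture was divided. Myo7a, Otof, Gfi1, Chrna9, Pcdh15 and Ush1c stood above 6 in all arrays and Strc in 11, while Pou4f3, Atoh1, Slc26a5, Tmc1, Espn and Cdh23 did so in no array. Slc26a5, which encodes prestin, the motor protein of outer hair cells, lay between 3.89 and 4.28, and Pou4f3, a transcription factor that hair cells need to survive, between 4.88 and 5.60. Brightness depends on the probe set as well as on the transcript, so a dim probe set does not show that a transcript was absent. Of the 7 genes that passed 6 in no array, the other is Atp6v1b1, a proton pump subunit known from interdental cells and the endolymphatic sac. Tecta stood above 6 in 5 arrays, Lmx1a in 2, Dct in 10, Tyr in 3 and Mlana in 1.

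**Figure D1:**
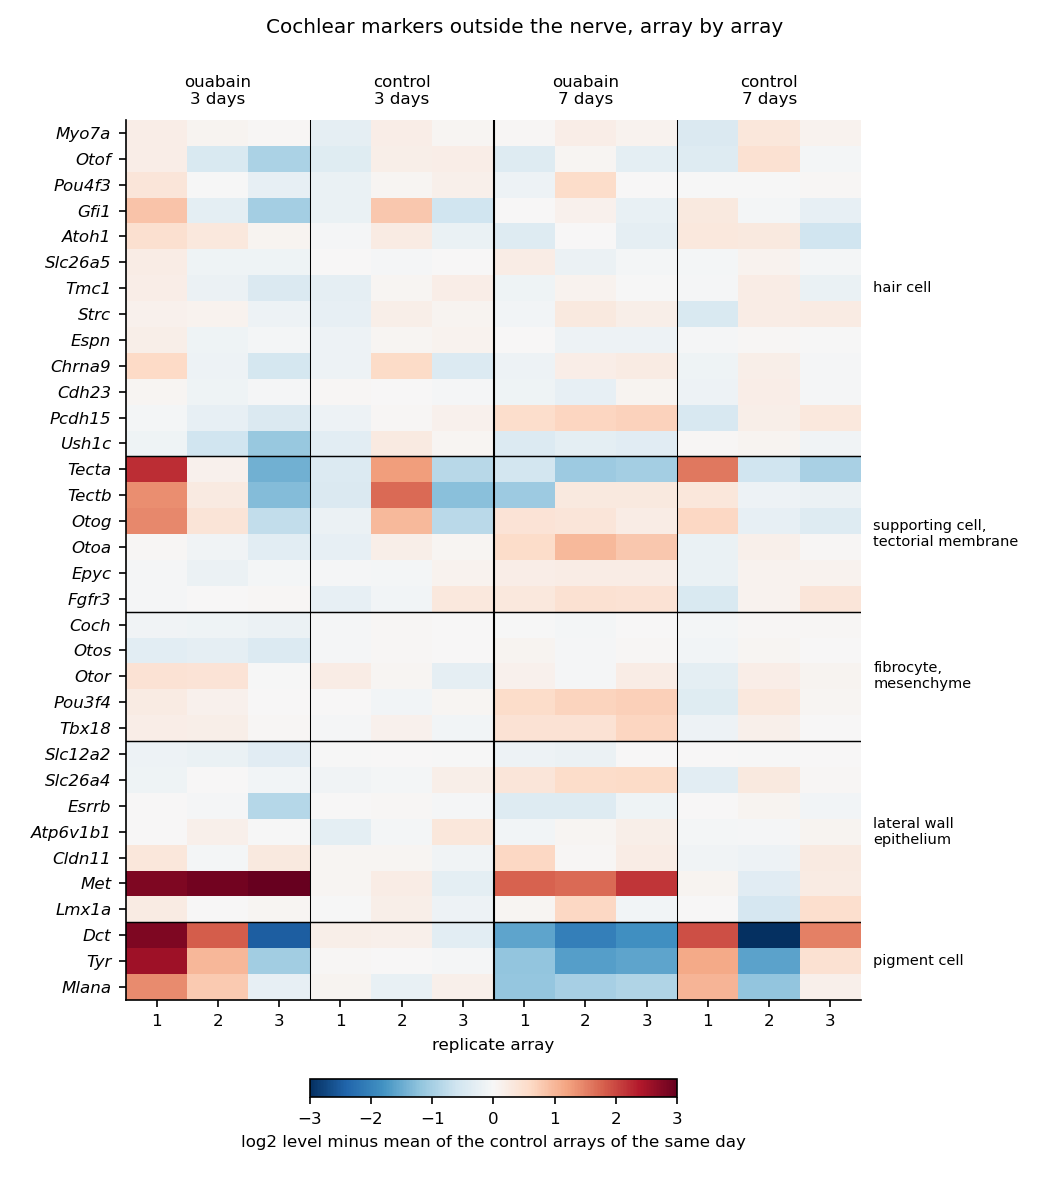
Heat map of the 34 genes (rows, grouped by role) in the 12 arrays (columns, by group and replicate number). Colour gives the log2 level minus the mean of the 3 control arrays of the same day, and the scale ends at 3 in both directions. Met is raised in all ouabain-treated arrays, the pigment cell genes and the tectorial genes Tecta, Tectb and Otog differ between arrays of 1 group, and most other rows are pale.

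Ouabain was followed by a change that passed the test in 1 of the 34 genes at 3 days and in 4 at 7 days. None passed the test with a lower level in the probe set used. A dimmer probe set of Esrrb, described below, did so at 7 days. A gene was called where limma gave an adjusted p under 0.05, with adjustment over 45037 probe sets, and the fold exceeded 1.5. At 3 days 1 of the 34 genes was called higher, Met, and 0 were called lower, beside 12.3% of all probe sets called in either direction (5.71% higher and 6.58% lower). At 7 days 4 of 34 were called higher, Met, Otoa, Pcdh15 and Pou3f4, and 0 lower, beside 12.7% of all probe sets (6.14% higher and 6.51% lower). Of the 18193 genes, each likewise read from its brightest probe set, 1367 were called higher and 1467 lower at 3 days. At 7 days these counts were 1378 and 1492. At an unadjusted p under 0.05 in limma with no fold threshold, 1 of the 34 genes was higher and 3 were lower at 3 days (Ush1c, Otos and Slc12a2). At 7 days 8 were higher and 0 lower. The share of all probe sets at this unadjusted threshold was not counted, so these counts say nothing about the set beside the rest of the array. The methods' test at unadjusted p and a fold above 1.5 called 0 lower at either day. The median log2 fold change of the 34 genes was 0.018 at 3 days and 0.038 at 7 days, against 0.011 and 0.027 over all genes. All 3 ouabain-treated arrays lay on 1 side of all 3 controls for 4 of the 34 genes at 3 days, where 37% of all probe sets did so, and for 9 at 7 days, where 38.3% did. Of the 18193 genes, read from 1 probe set each, 7932 did so at 3 days and 8394 at 7 days. In such bulk tissue, fewer cells of a type and less RNA per cell cannot be told apart. Of the 12 neuronal genes measured on the same arrays 11 fell at each day, and the median difference in that list was -2.33 at 3 days and -3.12 at 7 days (log2).

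**Figure D2:**
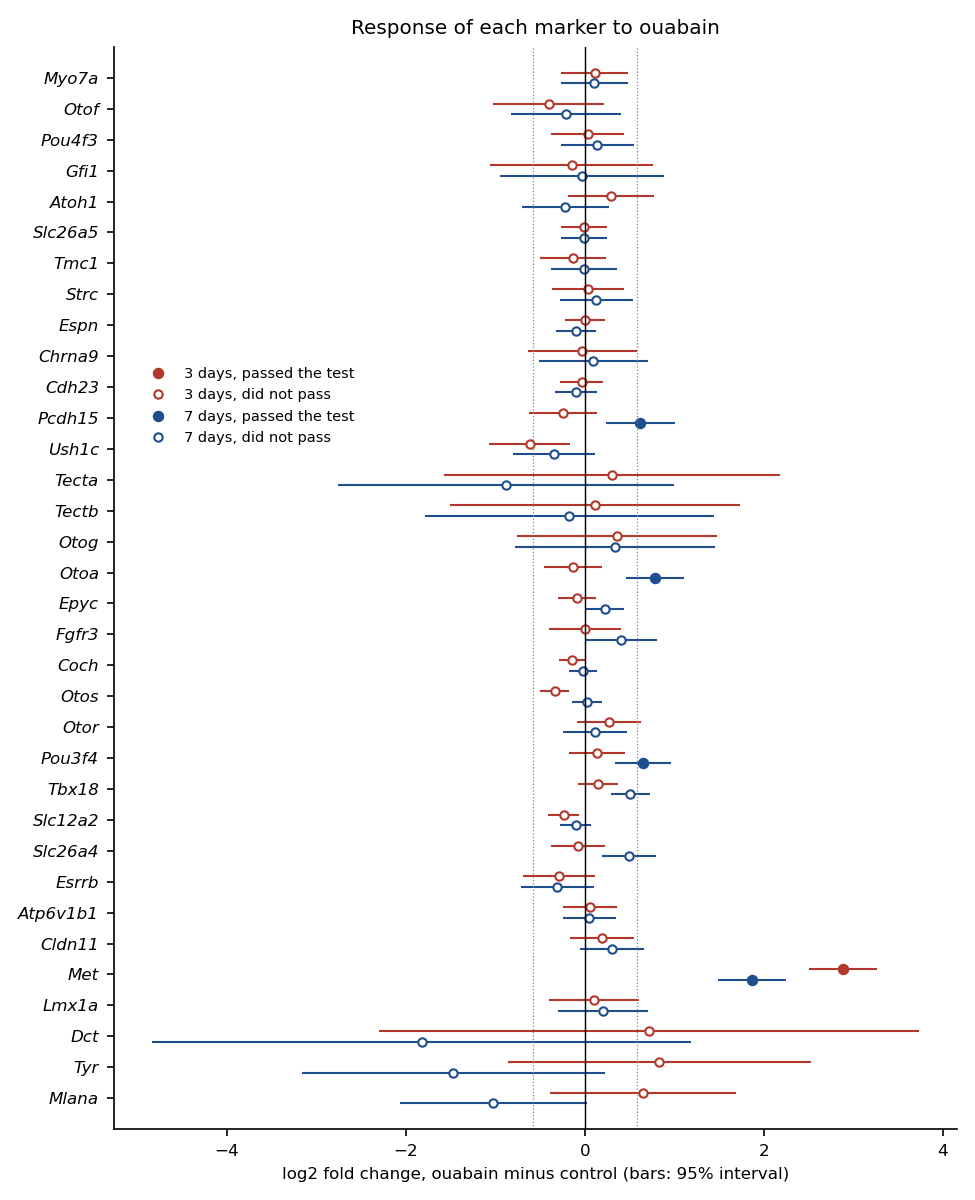
Log2 fold change of each of the 34 genes, ouabain minus control, at 3 days (red) and 7 days (blue), with bars for the 95% interval of the fit, filled points for genes that passed the test and dotted lines at a fold change of 1.5. Met lies at 2.89 and 1.87, Otoa, Pcdh15 and Pou3f4 pass at 7 days, and the widest intervals are those of Dct, Tecta, Tyr and Tectb.

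Met, which encodes the receptor of hepatocyte growth factor and is expressed in the lateral wall among many other tissues, rose at both days. At 3 days it read 11.98, 12.07 and 12.17 in ouabain-treated ears, against 9.25, 9.41 and 8.89 in control ears. At 7 days it read 11.25, 11.18 and 11.64 in ouabain-treated ears, against 9.58, 9.15 and 9.74 in control ears. The groups were well apart at both days, and the 7-day treated arrays all lay below the 3-day treated arrays and above every control. The log2 fold change was 2.89 ± 0.17 (SE, n = 3 each, limma adjusted p = 5.32e-07) at 3 days and 1.87 ± 0.17 (adjusted p = 1.11e-05) at 7 days. The 7-day response minus the 3-day response was -1.02 ± 0.25 and did not pass (adjusted p = 0.0859). Both probe sets of Met were called at both days, the other with 2.27 and 1.68. No other gene of the lateral wall epithelium list was called. The macrophage list moved with Met on these arrays. All 8 of its 8 genes rose at both days, and their mean log2 level per array ranged over 10.48 to 10.85 in ouabain-treated ears and 8.14 to 8.73 in control ears at 3 days, and over 10.49 to 10.68 in ouabain-treated ears and 8.41 to 8.72 in control ears at 7 days. The part of macrophages in the rise of Met was not tested.

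Because Met is the gene of the set with the largest response, its promoter is shown, as the 250 bases before the start site in RefSeq (GRCm38.p6, chr6:17463707-17463956, plus strand). Promoters were found there for 30 of the 34 genes, all but Pou4f3, Mlana, Otof and Slc12a2. Capitals mark a match to TGACTCA, the sequence bound by AP-1 factors, which lies on the opposite strand and begins 54 bases before the start site.
Met: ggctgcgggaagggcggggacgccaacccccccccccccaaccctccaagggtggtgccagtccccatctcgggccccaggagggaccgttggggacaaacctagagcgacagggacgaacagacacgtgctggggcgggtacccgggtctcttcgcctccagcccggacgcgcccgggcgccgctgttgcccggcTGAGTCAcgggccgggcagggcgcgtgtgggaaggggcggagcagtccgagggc
The same 7 letters, searched on both strands, occurred in 4.46% of 32851 RefSeq promoters of this length, and in 1 of the 30 promoters of the set. A match of letters is a description and no evidence of binding.

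The other 6 genes of ion transport and lateral wall epithelium were not called at either day. Slc26a4, which encodes pendrin, an anion exchanger of the spiral prominence, read 11.82, 12.01 and 12.04 in ouabain-treated ears at 7 days, against 11.14, 11.75 and 11.49 in control ears. The groups did not overlap, and the log2 fold change of 0.49 ± 0.14 passed the p threshold (limma adjusted p = 0.0199) but not the fold of 1.5. At 3 days its log2 fold change was -0.07. Slc12a2, the sodium potassium chloride cotransporter of marginal cells and type II fibrocytes, read 12.72, 12.69 and 12.54 in ouabain-treated ears at 3 days, against 12.88, 12.90 and 12.88 in control ears. All treated arrays lay below the controls, with a log2 fold change of -0.23 and an adjusted p of 0.0533. Cldn11, the tight junction protein of strial basal cells, which oligodendrocytes make as well, differed by 0.19 at 3 days and by 0.30 at 7 days, with overlapping groups. On the oligodendrocyte list, to which Cldn11 also belongs, 2 of 8 measured genes rose at 3 days, and at 7 days 2 rose and 1 fell. Esrrb, a nuclear receptor of marginal cells, lay lower in all treated arrays at 7 days, with a log2 fold change of -0.31 ± 0.19 (adjusted p = 0.27) that did not pass. Of its 3 probe sets another did pass at 7 days, with -1.66 (adjusted p = 0.00989). All 3 had negative fold changes at both days, from -1.66 to -0.09 at 7 days, so they disagree in size and in passing but not in direction. At 3 days the probe set that passed at 7 days also lay lower in all treated arrays, with -0.83 (limma adjusted p = 0.187), which did not pass. Lmx1a and Atp6v1b1 lay within 0.21 of their controls at both days.

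The fibrocyte and mesenchyme genes were measured in every array, and Pou3f4 was the gene among them that was called, at 7 days. Pou3f4, a transcription factor of otic mesenchyme whose loss causes deafness, read 10.74, 10.85 and 10.88 in ouabain-treated ears at 7 days, against 9.80, 10.49 and 10.24 in control ears. The groups did not overlap, and control replicate 1 was the lowest of the 12 arrays. Its log2 fold change was 0.65 ± 0.14 (SE, n = 3 each, limma adjusted p = 0.00544) at 7 days and 0.13 ± 0.14 at 3 days, and its second probe set was called at 7 days too, with 0.89. At 3 days this second probe set had 0.50 (limma adjusted p = 0.0304), under the fold threshold, with all treated arrays above the controls. Without control replicate 1 at 7 days the probe set used differed by 0.46 (adjusted p = 0.0129) at 7 days, under the fold threshold. Tbx18, another transcription factor of the otic mesenchyme, read 11.09, 11.10 and 11.29 in ouabain-treated ears at 7 days, against 10.49, 10.80 and 10.67 in control ears. These groups were apart, and the log2 fold change of 0.51 ± 0.10 had an adjusted p of 0.00295 but lay under a fold of 1.5, while its second probe set passed both with 0.66. Otos read 13.72, 13.78 and 13.63 in ouabain-treated ears at 3 days, against 14.01, 14.07 and 14.06 in control ears. All treated arrays were lower, with a log2 fold change of -0.34 ± 0.08 (adjusted p = 0.0057) that lay under the fold threshold, and at 7 days the difference was 0.02. Coch was likewise lower in all treated arrays at 3 days, with -0.14 (adjusted p = 0.195), and Otor, which encodes the secreted protein otoraplin, differed by 0.27 at 3 days and 0.11 at 7 days with overlapping groups. General fibroblast and matrix genes were higher on the same arrays, with 1 of 7 called at 3 days and 3 of 7 at 7 days. Their mean log2 level per array at 7 days ranged over 12.33 to 12.61 in ouabain-treated ears and 11.44 to 11.68 in control ears, and their part in the values of Pou3f4 and Tbx18 was not tested.

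**Figure D3:**
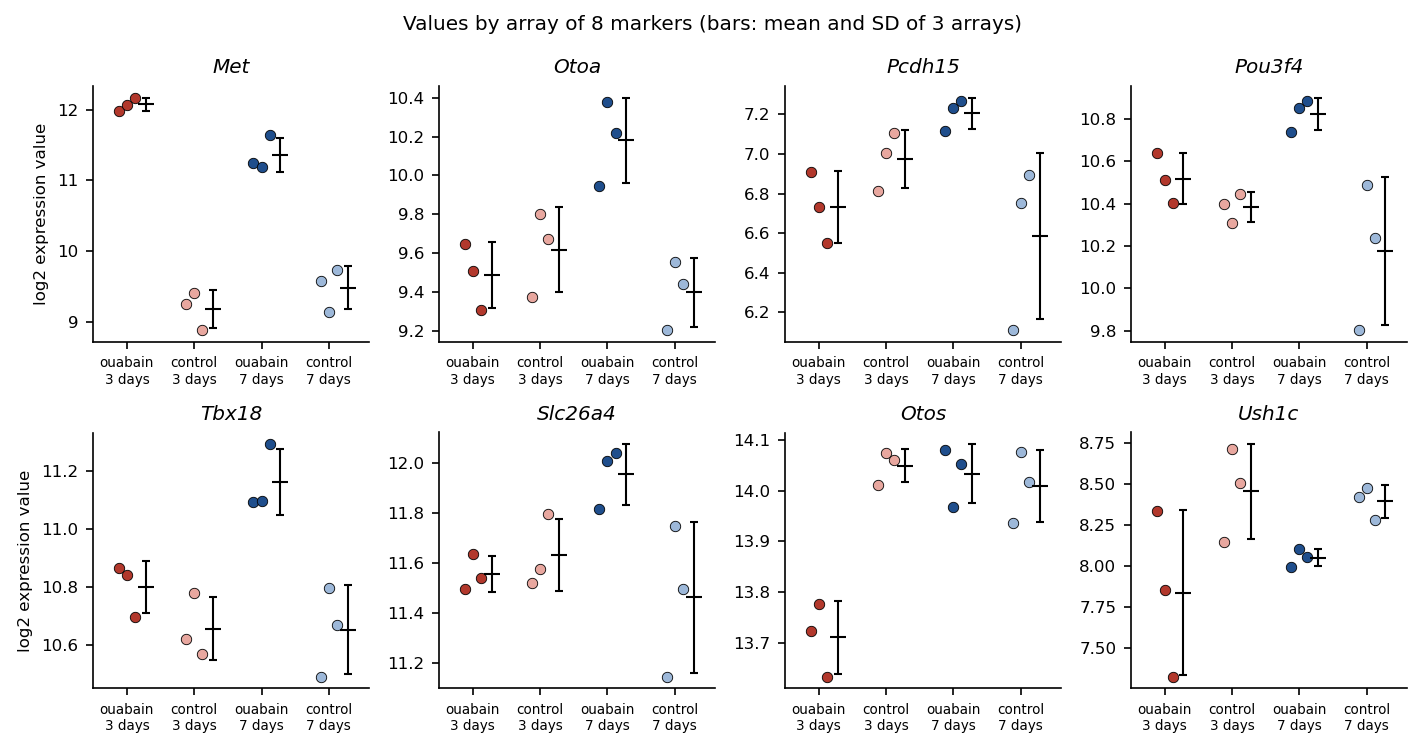
Log2 expression values of 8 genes in each array, ouabain-treated left of control at 3 days and at 7 days, with the mean and SD of the 3 arrays beside the points; the axes differ between panels and do not start at 0. Treated and control arrays of Met are apart at both days, those of Otoa, Pcdh15, Pou3f4, Tbx18 and Slc26a4 are apart at 7 days with treated ears higher, and those of Otos are apart at 3 days with treated ears lower.

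Among the supporting cell and tectorial membrane genes, Otoa was called. Otoa, which encodes otoancorin, the protein that attaches the tectorial membrane to the spiral limbus, read 9.65, 9.51 and 9.31 in ouabain-treated ears at 3 days, against 9.38, 9.80 and 9.67 in control ears. At 7 days it read 9.95, 10.38 and 10.22 in ouabain-treated ears, against 9.20, 9.55 and 9.44 in control ears. The groups overlapped at 3 days and were apart at 7 days. The log2 fold change was 0.78 ± 0.15 (SE, n = 3 each, limma adjusted p = 0.00199) at 7 days and -0.13 at 3 days, and the 7-day response minus the 3-day response was 0.91 ± 0.21 (adjusted p = 0.0723), which did not pass. Epyc, the leucine-rich proteoglycan epiphycan, lay between 12.85 and 13.29 in all arrays, and was higher in all treated arrays at 7 days by 0.22 (adjusted p = 0.118). Fgfr3, a growth factor receptor of pillar and Deiters' cells that is also used by astrocytes, differed by 0.00 at 3 days and 0.40 at 7 days (adjusted p = 0.135). Its second, dimmer probe set had 0.17 at 3 days and 0.41 at 7 days (limma adjusted p = 0.02). That 7-day difference lay under the fold threshold, with the groups apart. On the astrocyte list, which holds Fgfr3, 3 of 6 measured genes rose at 3 days and 2 at 7 days.

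The 3 genes for proteins of the tectorial membrane itself had an SD within groups that exceeded their difference between ouabain and control at both days, 1.28 for Tecta, 1.10 for Tectb and 0.76 for Otog. Tectb, which encodes beta-tectorin, read 9.38, 8.25 and 6.69 in ouabain-treated ears at 3 days, against 7.55, 9.68 and 6.73 in control ears, and 6.22, 7.62 and 7.60 in ouabain-treated ears at 7 days, against 7.65, 7.17 and 7.13 in control ears. Tecta, which encodes alpha-tectorin, read 8.80, 6.71 and 5.13 in ouabain-treated ears at 3 days, against 6.16, 7.83 and 5.75 in control ears, and 5.56, 5.04 and 5.11 in ouabain-treated ears at 7 days, against 7.69, 5.52 and 5.14 in control ears. Otog, which encodes otogelin, read 10.58, 9.54 and 8.41 in ouabain-treated ears at 3 days, against 8.99, 10.12 and 8.35 in control ears. All 3 genes were high in ouabain-treated replicate 1 and in control replicate 2 at 3 days, and their groups overlapped at both days. The 3-day log2 fold change was 0.12 ± 0.74 for Tectb, 0.30 ± 0.86 for Tecta and 0.36 ± 0.51 for Otog (SE), so that a change of 2-fold could not have been told from 0 in these genes.

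Of the 13 hair cell genes, 0 were called at 3 days and Pcdh15 was called at 7 days. Pcdh15, which encodes protocadherin 15, the lower part of the tip link, read 6.91, 6.73 and 6.55 in ouabain-treated ears at 3 days, against 6.81, 7.00 and 7.11 in control ears. At 7 days it read 7.12, 7.23 and 7.27 in ouabain-treated ears, against 6.11, 6.75 and 6.89 in control ears. The groups overlapped at 3 days and were apart at 7 days, where control replicate 1 was the lowest of the 12 arrays. The log2 fold change at 7 days was 0.62 ± 0.17 (SE, n = 3 each, limma adjusted p = 0.0205), and without control replicate 1 it was 0.38 (adjusted p = 0.0564). The call was lost as well without ouabain-treated replicate 2 (0.61, adjusted p = 0.0556) or replicate 3 (0.59, adjusted p = 0.0569) at 7 days. The other 2 probe sets of Pcdh15 were not called at 7 days, with -0.11 and 0.20. Ush1c, which encodes harmonin, the scaffold protein at the upper end of the tip link, read 8.33, 7.86 and 7.32 in ouabain-treated ears at 3 days, against 8.14, 8.72 and 8.50 in control ears. The groups overlapped through treated replicate 1, and the log2 fold change of -0.62 ± 0.21 missed the threshold (adjusted p = 0.0515). At 7 days Ush1c lay lower in all treated arrays, with -0.34 (adjusted p = 0.275).

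For the remaining hair cell genes the intervals limit how much could have changed. Myo7a, the myosin of stereocilia, had a 3-day log2 fold change of 0.11 with a 95% interval of -0.26 to 0.48, and 0.11 with -0.27 to 0.48 at 7 days. Otof, which encodes otoferlin, the calcium sensor of the inner hair cell synapse, had -0.41 with an interval of -1.02 to 0.21 at 3 days and -0.21 with -0.83 to 0.40 at 7 days. Strc, which encodes stereocilin, had 0.03 at 3 days and 0.13 at 7 days. The transcription factor Gfi1 and the acetylcholine receptor subunit Chrna9, through which efferent fibres act on outer hair cells, had intervals at 3 days of -1.06 to 0.77 and -0.64 to 0.58. The 6 genes that stood above 6 in no array (Pou4f3, Atoh1, Slc26a5, Tmc1, Espn and Cdh23) had log2 fold changes between -0.22 and 0.29, and values this dim give no reading of a fall.

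The pigment cell genes differed widely between arrays of 1 group, and none was called. Dct, which encodes dopachrome tautomerase, read 10.61, 9.64 and 5.34 in ouabain-treated ears at 3 days, against 8.00, 7.96 and 7.49 in control ears. At 7 days it read 7.26, 6.80 and 7.00 in ouabain-treated ears, against 10.78, 5.40 and 10.35 in control ears. Replicates 1 and 2 of the treated ears at 3 days and replicates 1 and 3 of the controls at 7 days were therefore high, and the remaining array of each of these groups was the lowest of its day. Tyr, which encodes tyrosinase, the first enzyme of melanin synthesis, read 7.37, 5.83 and 3.79 in ouabain-treated ears at 3 days, against 4.86, 4.83 and 4.80 in control ears. At 7 days Tyr read 4.62, 4.16 and 4.23 in ouabain-treated ears, against 6.95, 4.21 and 6.26 in control ears. Mlana, which encodes a melanosome protein, was highest in the same 4 arrays, at 5.97 and 5.32 in the treated ears at 3 days and 6.36 and 5.49 in the controls at 7 days. The fitted log2 fold changes were 0.72 ± 1.38 for Dct, 0.83 ± 0.78 for Tyr and 0.65 ± 0.48 for Mlana at 3 days, and -1.83 ± 1.38, -1.47 ± 0.78 and -1.02 ± 0.48 at 7 days, and none passed (limma adjusted p between 0.148 and 0.799). The SD within groups, pooled over the 4 groups, was 2.06 for Dct, 1.15 for Tyr and 0.71 for Mlana, against a median of 0.14 over all genes.

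The promoters of the melanin synthesis genes are shown because Tyr and Dct share an array pattern that Tyrp1, described further on, does not. Each is 250 bases before the RefSeq start site in GRCm38.p6, for Tyr chr7:87493513-87493762 on the minus strand, for Dct chr14:118052247-118052496 on the minus strand and for Tyrp1 chr4:80833963-80834212 on the plus strand. Tyrp1 encodes another enzyme of the same pathway and was followed from the list of other lateral wall genes. Capitals mark TCATGTG, the core of the M-box that MITF binds in pigment genes, or its reverse complement.
Tyr: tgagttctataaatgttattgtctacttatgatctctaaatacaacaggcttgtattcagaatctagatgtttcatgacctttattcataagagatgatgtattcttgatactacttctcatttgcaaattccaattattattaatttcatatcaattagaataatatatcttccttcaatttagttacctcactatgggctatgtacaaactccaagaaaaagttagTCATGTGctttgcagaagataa
Dct: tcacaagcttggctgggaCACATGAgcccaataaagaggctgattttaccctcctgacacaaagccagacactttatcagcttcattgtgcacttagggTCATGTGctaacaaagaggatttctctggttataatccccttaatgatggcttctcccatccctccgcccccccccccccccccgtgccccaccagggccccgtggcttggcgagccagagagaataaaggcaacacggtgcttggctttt
Tyrp1: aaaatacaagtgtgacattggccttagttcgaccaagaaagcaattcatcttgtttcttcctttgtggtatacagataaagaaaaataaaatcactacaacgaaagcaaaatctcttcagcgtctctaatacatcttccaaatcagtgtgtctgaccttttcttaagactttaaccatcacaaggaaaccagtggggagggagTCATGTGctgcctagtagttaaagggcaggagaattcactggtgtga
The motif begins 22 bases before the start site in Tyr and 47 in Tyrp1, and Dct has a match at 151 bases and another, on the opposite strand, at 232. Searched on both strands, it occurred in 3.25% of 32851 promoters, and in 3 of the 30 promoters of the set, those of Dct, Tyr and Myo7a.

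**Figure D4:**
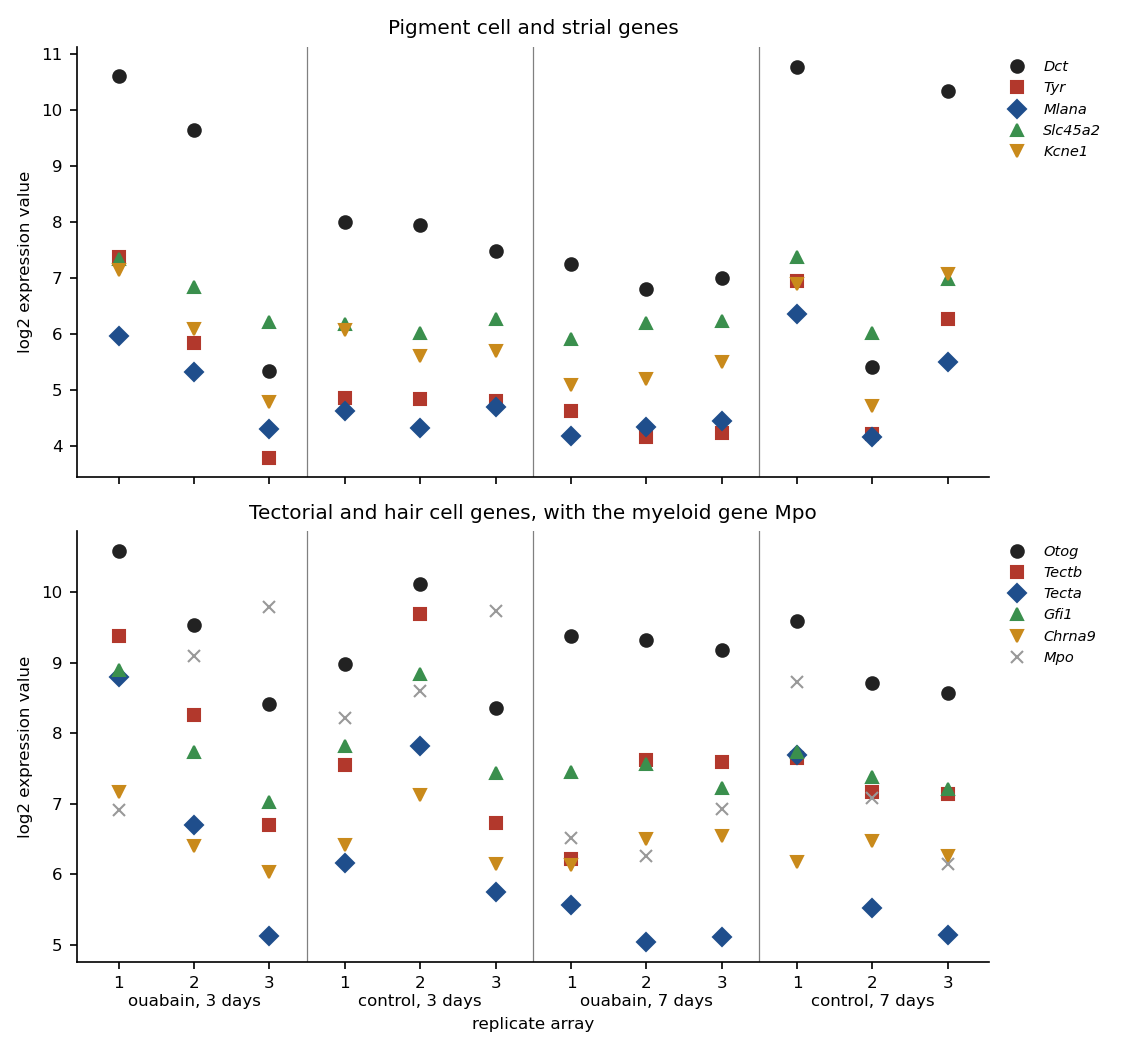
Log2 expression values in the 12 arrays, by group and replicate number, for pigment cell and strial genes (top) and for tectorial and hair cell genes with the myeloid gene Mpo (bottom). The upper genes are highest in treated replicates 1 and 2 at 3 days and control replicates 1 and 3 at 7 days, and the lower genes other than Mpo are highest in treated replicate 1 and control replicate 2 at 3 days.

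Each array pattern was shared by a minority of the other cochlear genes listed. The 4 arrays named above held the 4 highest values of the 12 for 13 of 18193 genes (0.0715%), chosen here after their values were seen. They were Dct, Tyr and Mlana, 2 of the 13 other lateral wall genes, namely Slc45a2, a melanosomal transporter, and Kcne1, a potassium channel subunit of marginal cells, and genes on none of the lists such as Gsta2, Dnase1 and Hpse. The other 11, among them Pmel, Mitf, Kit, Trpm1, Tyrp1 and Kcnq1, did not follow it. Kcnq1, another potassium channel gene, missed it narrowly. It read 7.20 in treated replicate 2 at 3 days, against 7.26 in treated replicate 2 at 7 days. Kcne1 read 7.14, 6.08 and 4.79 in ouabain-treated ears at 3 days, against 6.07, 5.61 and 5.69 in control ears, and 5.09, 5.20 and 5.50 in ouabain-treated ears at 7 days, against 6.89, 4.70 and 7.08 in control ears. Treated replicate 1 and control replicate 2 at 3 days held the 2 highest values for 103 genes (0.566%), among them 3 of the 6 supporting cell and tectorial genes (Tectb, Tecta and Otog), 2 of the 13 hair cell genes (Gfi1 and Chrna9), 2 of the 13 other hair cell genes (Lhx3 and Rbm24) and 0 of the 9 other supporting cell genes. Gfi1 is also a gene of granulocyte precursors and stands on the neutrophil and marrow list, of whose 9 genes it was the 1 with this pattern. The mean log2 level of that list per array ranged over 8.76 to 9.83 in ouabain-treated ears and 9.41 to 9.71 in control ears at 3 days, and its part in the values of Gfi1 was not tested. Mpo read 6.91, 9.09 and 9.79 in ouabain-treated ears at 3 days, against 8.22, 8.61 and 9.74 in control ears. The within-group SD exceeded the median of all genes for 27 of the 34 genes.

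Control replicate 1 at 7 days was the lowest of the 12 arrays for 9 of the 34 genes, against 13.2% of all genes, and the 9 were Myo7a, Strc, Pcdh15, Otoa, Epyc, Fgfr3, Pou3f4, Tbx18 and Slc26a4. Pcdh15, Otoa and Pou3f4, called at 7 days, are among them. Without this array 2 of the 34 genes were called higher at 7 days, Met and Otoa. Ouabain-treated replicate 3 at 3 days was the lowest for 10 of the 34, against 12.2% of all genes. Replicate 1 of the same group was the highest for 9 and the lowest for 0, against 3.59% and 5.24% of all genes. Control replicate 1 at 7 days was also the highest for 3 of the 34, against 9.73% of all genes.

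Other genes of the same tissues were listed beside the 34. Of 13 measured other hair cell genes, 3 fell and 0 rose at 3 days, and 3 fell and 2 rose at 7 days. Strip2 differed by -1.46 at 3 days and -1.57 at 7 days (log2, ouabain minus control), Clrn1, which encodes clarin 1, had -0.62 and -0.64, and Lhfpl5, a subunit of the transduction channel complex, had -0.68 and -0.61. Tmprss3, a serine protease, and Tmie, another transduction component, rose at 7 days by 0.74 and 0.68. Of 9 other supporting cell genes 3 fell at both days, and Bmp4, a secreted growth factor, rose by 0.61 at 7 days. Prox1, a transcription factor of supporting cells, had -1.84 at 3 days and -2.05 at 7 days, Hey2, a Notch target, had -1.10 and -1.21, and Lgr5, a Wnt pathway receptor, had -1.41 and -0.80. The spiral ganglion neuron list fell on the same arrays, with mean log2 levels of 8.44 to 9.86 in ouabain-treated ears and 11.28 to 11.41 in control ears at 3 days, and 7.76 to 8.94 in ouabain-treated ears and 11.17 to 11.33 in control ears at 7 days, and its part in these falls was not tested.

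**Figure D5:**
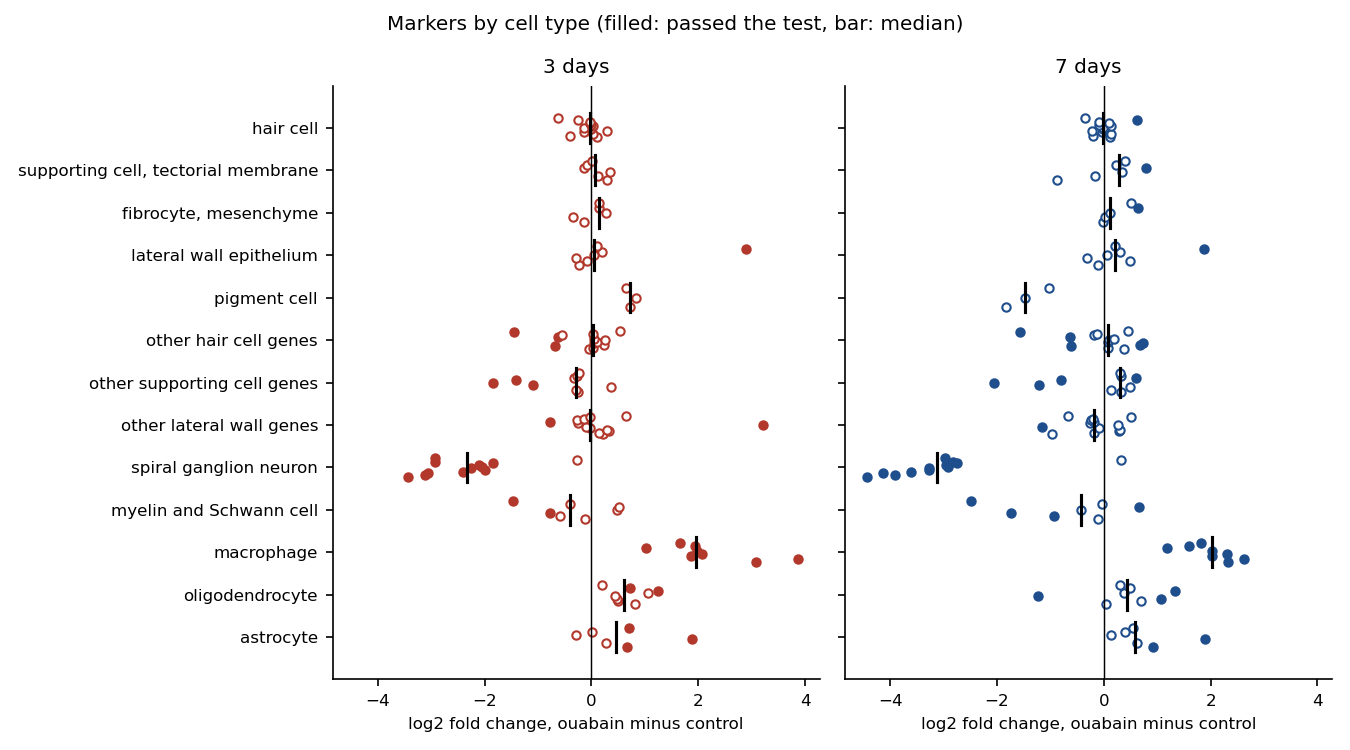
Log2 fold change, ouabain minus control, of every gene in the 5 role groups of the set, in 3 lists of other cochlear genes and in 5 lists of nerve cell types, at 3 days (left) and 7 days (right), with filled points for genes that passed the test and bars for medians. Of the neuronal genes 11 of 12 pass below 0, and all 8 macrophage genes pass above it, at both days, while the role groups of the set, apart from the pigment cell genes, centre between -0.029 and 0.278.

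Among the 13 other lateral wall genes, Tyrp1 rose and Kit fell at 3 days, and Pmel fell at 7 days. Tyrp1 read 7.84, 7.92 and 7.88 in ouabain-treated ears at 3 days, against 4.52, 4.82 and 4.65 in control ears. At 7 days it read 4.57, 5.14 and 5.24 in ouabain-treated ears, against 4.61, 4.62 and 4.92 in control ears. All 3 treated arrays at 3 days were high, including replicate 3, in which Dct and Tyr had their lowest value of the 12 arrays, so Tyrp1 did not share the array pattern of Dct and Tyr. Its log2 fold change was 3.22 at 3 days (limma adjusted p = 1.58e-07) and 0.27 at 7 days, and the 7-day response minus the 3-day response was -2.96 (adjusted p = 7.77e-05). Kit, the receptor of melanocyte precursors, fell by 0.78 at 3 days, and Pmel, which forms the fibrils of the melanosome, fell by 1.16 at 7 days. The Kir4.1 channel Kcnj10, known from strial intermediate cells and from glia, had 0.33 and 0.28 and stayed under the fold threshold.

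Between the days, 0 of the 34 genes passed the test of the 7-day response minus the 3-day response, beside 0.853% of all probe sets (0.173% higher and 0.679% lower), and 0 of 34 differed between the 7-day and 3-day controls, beside 0.0111% (0.00222% higher and 0.00888% lower). At an unadjusted p under 0.05 in limma, the first of these tests gave 9 genes, 7 higher and 2 lower. The second gave 1, Pcdh15, which was lower. The share of all probe sets at this unadjusted threshold was not counted, so these counts cannot be set against the rest of the array. The pigment cell genes had the widest role median between the controls, 0.98 (7-day minus 3-day), which rests on control replicates 1 and 3 at 7 days.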

How the data were processed

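Total RNA of the nerve preparations was hybridised to Affymetrix mouse expression arrays, 12 in all, 3 per group. The authors made the deposited log2 expression values, 1 per probe set and array, by RMA in the Affymetrix Expression Console, and took detection calls from MAS5, which were not used here. The versions of these tools are not given in the sources used here. RMA scales all arrays to 1 distribution, so a shift shared by most genes would not be seen. The labels and the methods differ on the RNA input and the extraction kit.

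The table holds 45101 probe sets, of which 64 are hybridisation controls and were not used. Symbols came from the platform annotation, in which 34945 probe sets carry 1 symbol, 932 several and 9160 none. A linear model with 1 mean per group was run in limma (version 3.58.1, under R 4.3.3) on all 45037 probe sets, and Benjamini-Hochberg adjusted p-values were called under 0.05 with a fold above 1.5, except in the day difference, which had no fold threshold. Intervals are 95% intervals of that fit. The p-values measure the spread between pooled samples, and 3 arrays per group limit the precision. All 34 genes are accounted for, with values in every array for those called and for defining genes of each cell type, and up to 4 called genes are named per further list. The members and lists were chosen with earlier results of these data known. The procedure was tested on simulated data. Figures were drawn with matplotlib 3.10.9 in Python 3.11.15.

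Same-numbered ouabain-treated and control arrays were not taken as pairs. Alternatives were the methods' t-test, the arrays of 1 day alone, a replicate block, other fold thresholds, a filter on dim probe sets, other normalizations, trend and robust moderation, the mean over probe sets, each array left out, and, chosen after seeing the data, fits without the arrays high in Tectb or in Dct.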

Additional observations from a re-analysis of the deposited data

Results flagged for a closer look

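The response of Tyrp1, a melanin synthesis gene of the list of other lateral wall genes, differed between the days. Its 7-day response minus its 3-day response was -2.955 on the log2 scale (limma adjusted p = 7.77e-05), with all 3 ouabain-treated arrays above all 3 controls at 3 days and overlapping groups at 7 days.

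Gjb2, which encodes connexin 26 and stands on the list of other supporting cell genes, lay on opposite sides of its controls at the 2 days. It read 12.45, 12.33 and 12.20 in ouabain-treated ears at 3 days, against 12.46, 12.58 and 12.69 in control ears, and 12.74, 12.68 and 13.00 in ouabain-treated ears at 7 days, against 12.33, 12.58 and 12.56 in control ears. The 7-day response minus the 3-day response was 0.5681 and did not pass (limma adjusted p = 0.138).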

How the results depend on the processing

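Met was called higher at both days under all 25 alternatives, with a log2 fold change of 2.58 to 3.05 at 3 days and 1.70 to 2.21 at 7 days, and 1 gene was called higher at 3 days under each. Met, Otoa, Pcdh15 and Pou3f4 kept the direction of their calls under all of them. The fit without the arrays high in Dct removed arrays by the level of Dct itself. It left 1 treated array at 3 days and 1 control at 7 days, each the lowest of its day for Dct. Its results for Dct, and for Tyr, which shares the array pattern, follow from that choice and are not counted here. Genes called lower at 3 days, 0 in the report, came to 1 with no fold threshold (Otos) and to 1 (Ush1c) with the filter on dim probe sets, with trend and robust moderation, with the mean over probe sets and without the arrays high in Tectb. Otof, Ush1c and Esrrb were lower than in the controls in the 1 treated array at 3 days that is left without the arrays high in Dct. That array and the 1 control left at 7 days were each assumed to vary like the other groups. With single arrays left out the genes called lower at 3 days ranged from 0 to 1. The 1 was Ush1c, without control replicate 1 or ouabain-treated replicate 1 at 3 days. Genes called higher at 7 days, 4 in the report, came to 1 (Met) with the methods' t-test after adjustment and with a fold above 2. They came to 6 with no fold threshold. With single arrays left out they ranged from 2 (without control replicate 1 at 7 days) to 5 (without control replicate 2 at 7 days, which adds Slc26a4). Otoa, Pcdh15 and Pou3f4 differed by 0.63, 0.45 and 0.33 at 7 days without the arrays high in Dct. Genes called lower at 7 days, 0 in the report, came to 1 (Esrrb) with the mean over probe sets and ranged from 0 to 3, the 3 being Dct, Tyr and Mlana without control replicate 2 at 7 days. Day differences, 0 in the report, came to 1 (Otoa) with the filter and to 2 (Otoa and Otos) with trend and robust moderation. With single arrays left out they ranged from 0 to 1, the 1 being Met without control replicate 2 at 7 days. The causes were not tested. Controls of the days differed in 0 of the 34 genes under 19 alternatives. At 7 days Pcdh15 lost its call under 9 of 25 alternatives, Pou3f4 under 4 and Otoa under 3. The other scalings moved the median of all probe sets by under 0.1.

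The replicate numbers were tested as pairs by a replicate block. Same-numbered arrays of ouabain-treated and control ears correlated in their deviations from the group means with 0.33, 0.09 and 0.18 at 3 days and 0.28, 0.16 and 0.02 at 7 days. Different-numbered arrays of a day ranged from -0.33 to 0.15, and 4 of 6 treated arrays correlated best with the control of their own number. These values do not show that pairing is absent. The numbers were not taken as pairs because the sources do not state that they are. With the block 1 gene was called higher at 3 days, 4 at 7 days and 0 in the day difference, the same genes as without it.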

Other observations

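Genes of organs outside the cochlea, 18 of them measured, were listed as a check of the preparations, and 0 were called at either day. The mean log2 level of the list per array lay between 4.47 and 5.05. Gh and Prl, hormone genes of the pituitary, are described here. The other genes of the list, which was drawn up with the pituitary genes Lhb and Tshb as well, are not. Gh, which encodes growth hormone, read 7.62, 6.72 and 6.71 in ouabain-treated ears at 3 days, against 8.25, 4.66 and 9.24 in control ears, and 7.71, 9.77 and 7.52 in ouabain-treated ears at 7 days, against 10.70, 7.39 and 6.58 in control ears. Prl, which encodes prolactin, lay between 4.68 and 7.14, with its highest value in control replicate 1 at 7 days, the array that was also the highest for Gh and the lowest for 9 of the 34 cochlear genes. A link between these values was not tested.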
